A study of Rattus norvegicus and Mus musculus with 22 samples.

Results

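The genes followed here, 10 genes of glucose production and its transcriptional control, were measured in a study of the cAMP response in pancreatic and liver cells. They are Pck1, Pck2, Fbp1, G6pc, Tat, Slc25a25, Ppargc1a, Ppargc1b, Foxo1 and Foxo3. They were found by symbol, without regard to case, and all 10 were listed in each of the 6 deposited tables, which together held 29047 gene symbols. Forskolin, a plant diterpene that activates adenylyl cyclase and raises cAMP, was given at 10 µM for 2 h wherever it was used, per the labels. Forskolin-treated and control libraries were made from cultured primary islets and cultured primary hepatocytes of wild-type black6 mice and from rat INS-1 insulinoma cells, with 2 libraries in each group. The remaining groups had 1 library each. They were forskolin-treated and control islets of CRTC2KO mice, which the labels describe as whole body; INS-1 cells given A-485 and forskolin, JQ1 and forskolin, forskolin alone or neither; and forskolin-treated and control AR42J cells, a rat pancreatic tumour line, carrying NeuroD1 or GFP. A-485, an inhibitor of the acetyltransferase activity of p300 and CBP, was present at 10 µM for 4 h, and JQ1, which blocks the bromodomains of BET proteins, at 1 µM for 4 h. The labels give no age or sex for the mice and do not say whether the AR42J lines were clones or what promoter drove NeuroD1.

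Gluconeogenesis makes glucose from lactate, glycerol and amino acids, and in fasting it runs mainly in the liver and kidney. PEPCK, encoded by Pck1 in the cytosol and Pck2 in mitochondria, turns oxaloacetate into phosphoenolpyruvate; Fbp1 encodes fructose-1,6-bisphosphatase, and G6pc the catalytic subunit of glucose-6-phosphatase, which releases free glucose. Glucagon raises cAMP in hepatocytes, protein kinase A phosphorylates CREB, and the coactivators CRTC2, CBP and p300 join CREB at cAMP response elements. PGC-1alpha, the product of Ppargc1a, is itself a CREB target in liver and coactivates HNF4A and FOXO1 at gluconeogenic genes. Tat encodes tyrosine aminotransferase, a classic hormone-induced liver enzyme, and Slc25a25 a mitochondrial carrier that exchanges ATP-Mg for phosphate.

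The palindromic cAMP response element is TGACGTCA, and promoters were searched for it because CREB is the factor the study is about. RefSeq promoter sequences of the rat, the species of INS-1 and AR42J cells, were used in the GRCr8 build and run from 250 bases before to 50 after the annotated start. Of the 10 genes, 9 had an entry (G6pc under its RefSeq symbol G6pc1). The element, and the variants TTACGTCA and TTACGTAA, were searched on both strands, as was the core TGACG, which overlaps the palindrome and TTACGTCA. TGACGTCA and TTACGTAA read the same on both strands. The 4 promoters with a match to an 8-base motif are shown with each match in capitals, the core included, and that of Pck2, which had none, is shown beside them.
Ppargc1a, chr14:63634058-63634357, plus strand: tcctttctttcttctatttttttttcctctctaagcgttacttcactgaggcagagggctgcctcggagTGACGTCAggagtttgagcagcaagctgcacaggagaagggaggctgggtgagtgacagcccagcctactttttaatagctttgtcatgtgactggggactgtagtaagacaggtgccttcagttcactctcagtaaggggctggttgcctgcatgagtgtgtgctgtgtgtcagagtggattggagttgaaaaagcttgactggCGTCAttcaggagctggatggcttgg
Slc25a25, chr3:36116532-36116831, minus strand: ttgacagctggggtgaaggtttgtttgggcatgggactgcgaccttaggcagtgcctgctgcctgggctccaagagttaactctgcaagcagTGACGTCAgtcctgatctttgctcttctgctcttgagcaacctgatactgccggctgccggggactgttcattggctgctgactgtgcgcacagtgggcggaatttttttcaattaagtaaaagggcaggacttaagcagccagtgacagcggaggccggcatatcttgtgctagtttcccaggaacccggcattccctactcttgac
Pck1, chr3:182348322-182348621, plus strand: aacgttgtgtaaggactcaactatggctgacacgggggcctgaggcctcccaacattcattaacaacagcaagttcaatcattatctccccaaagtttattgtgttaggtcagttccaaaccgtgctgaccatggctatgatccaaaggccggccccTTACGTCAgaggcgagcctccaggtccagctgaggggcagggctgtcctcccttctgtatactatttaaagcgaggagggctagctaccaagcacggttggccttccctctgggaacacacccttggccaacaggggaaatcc
G6pc1, chr10:86807409-86807708, plus strand: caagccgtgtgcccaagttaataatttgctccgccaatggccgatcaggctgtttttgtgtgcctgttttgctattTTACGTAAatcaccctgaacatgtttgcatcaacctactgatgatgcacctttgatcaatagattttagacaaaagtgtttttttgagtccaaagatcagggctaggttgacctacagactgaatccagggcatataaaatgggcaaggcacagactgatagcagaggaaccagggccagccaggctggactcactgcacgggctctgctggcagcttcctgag
Pck2, chr15:32997603-32997902, plus strand: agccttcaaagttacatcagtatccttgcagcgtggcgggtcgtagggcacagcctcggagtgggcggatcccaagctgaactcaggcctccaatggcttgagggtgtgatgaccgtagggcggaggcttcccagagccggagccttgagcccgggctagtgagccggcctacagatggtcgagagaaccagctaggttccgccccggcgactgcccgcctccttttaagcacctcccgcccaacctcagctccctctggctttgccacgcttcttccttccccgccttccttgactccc

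TGACGTCA began 181 bases before the start of Ppargc1a and 158 bases before that of Slc25a25, and it was present in 1.83% of the 33469 rat promoters of this length. TTACGTCA lay 93 bases before the start of Pck1 and was present in 0.807% of promoters. TTACGTAA lay 174 bases before the start of G6pc1, against 0.120% of promoters. The core TGACG, found in 21.2% of promoters, occurred in Ppargc1a, Slc25a25 and Pck1, once in Ppargc1a also after the start. No match was found in these windows for Pck2, Fbp1, Tat, Foxo1 or Ppargc1b. These are matches of letters only, and binding was not measured in the data used here.

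Depth was low to moderate, between 1.95 and 6.20 M reads in the replicated libraries whose totals are in the file headers, and between 0.612 and 5.71 M reads, as estimated from the value of 1 read, in the other libraries. Hepatocyte libraries carried the hepatocyte markers and INS-1 libraries 9 of 11 islet endocrine markers above the low-value limit. AR42J libraries had 4 to 7 of the 11, and Neurod1 stood at 3834 and 3323 FPKM (fragments per kilobase of transcript, scaled to depth) in the NeuroD1 forskolin and control libraries, against 5.67 and 3.44 FPKM in the GFP forskolin and control libraries. There are 2 faults that bear on the results. First, the islet library forskolin 1 and both CRTC2 knockout islet libraries held raised levels of liver transcripts. By the marker median, islet control 1 also held somewhat more of them than control 2. Second, in the hepatocyte table the replicate 2 names go against the order of groups in the file header. Values are therefore given for each library and each pair.

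In islets forskolin raised the coactivator gene Ppargc1a, the carrier gene Slc25a25, and the enzyme genes Fbp1 and Tat. These were 4 of the 10 genes, all of which passed the low-value limit (at least 1 group averaging 1 or more in log2 units), against 1.72% of 13656 genes called higher. Calls rest on limma with a variance trend and Benjamini-Hochberg adjustment over all genes tested, at adjusted p under 0.05. Of all genes 0.242% were called lower, none of the 10 among them. None of the 10 was lower at an unadjusted limma p under 0.05 either, a limit that 1985 of the 13656 genes passed in either direction. The authors' deposited table calls the same 4 genes higher, against 2.83% of 17053 genes with a value, and none lower, against 0.369%. Both forskolin libraries lay above both controls for 5 of the 10 genes, the 4 named and Foxo1, against 23% of all genes tested, and below both for 1, Ppargc1b, against 23.2%. Levels are the authors' log2 values, whose scale draws low genes towards each other, and since no label ties replicates to separate animals or cultures, the p-values reflect the variation among these particular libraries, possibly technical. In such bulk samples fewer cells of a type and less RNA per cell cannot be told apart.

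Ppargc1a (mm10, chr5:51454249-51567725, minus strand) had log2 values of 6.08 and 6.64 in forskolin 1 and 2, against 4.18 and 4.53 in controls 1 and 2. Both forskolin libraries were higher than both controls by more than the spread within either group. The log2 fold change was 2.00 (SE 0.242, n = 2 each, limma adjusted p = 0.0082), 4.00-fold on this scale. The authors' deposited table gives a larger log2 fold change of 3.51. Slc25a25 (chr2:32414487-32424066, minus strand) had log2 values of 9.03 and 9.72 with forskolin and 7.36 and 7.16 in controls. This carrier gene showed the largest fitted change of the 10, a log2 fold change of 2.12 (SE 0.286, limma adjusted p = 0.0125). The authors' deposited table gives it 2.83, below the value there for Ppargc1a. Its pair 2 difference of 2.56 exceeded its pair 1 difference of 1.67.

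Fbp1 (chr13:62864753-62888282, minus strand), the fructose-1,6-bisphosphatase gene, had log2 values of 7.51 and 7.16 with forskolin and 5.75 and 5.68 in controls. The change of 1.62 (SE 0.214, limma adjusted p = 0.0115) was similar in the 2 pairs, at 1.76 and 1.48. Tat (chr8:109990436-109999804, plus strand) had log2 values of 8.35 and 7.91 with forskolin and 6.89 and 6.85 in controls. Its change of 1.26 (SE 0.237, limma adjusted p = 0.0445) lay just inside the threshold, and the call was lost with no low-value limit (adjusted p = 0.0572), with no variance trend (0.0611), with quantile normalisation (0.0775) and without control 1 (0.309) or control 2 (0.391). Fbp1 too lost its call without control 2 (adjusted p = 0.0595), which left 2 of the 10 genes called higher, against 0.833% of all genes in that fit.

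Foxo1, a transcription factor that insulin signalling keeps out of the nucleus, had log2 values of 7.84 and 7.95 with forskolin and 7.05 and 7.38 in controls. The forskolin libraries were higher without overlap, but the difference of 0.68 (SE 0.228, limma adjusted p = 0.223) did not pass. The remaining 5 genes did not pass and, apart from Ppargc1b, differed in opposite ways or by very different amounts in the 2 pairs. Pck1 had log2 values of 7.40 and 4.78 with forskolin and 5.31 and 4.47 in controls, so that 1 library carried most of its mean difference of 1.20 (SE 0.72, limma adjusted p = 0.486). G6pc had 4.55 and 2.95 with forskolin and 3.14 and 3.18 in controls. The mitochondrial enzyme gene Pck2 had 8.0 and 8.89 with forskolin and 8.92 and 8.66 in controls. Foxo3, a relative of Foxo1, had 4.97 and 6.22 with forskolin and 6.36 and 6.15 in controls. Ppargc1b, which encodes the related coactivator PGC-1beta, differed by -0.24 (SE 0.123, limma adjusted p = 0.419).

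Liver transcripts moved with pair 1. All 18 hepatocyte markers were higher in forskolin 1 than in control 1, with a median difference of 2.71, and 8 of 18 were higher in forskolin 2 than in control 2, with a median of -0.02. Their summed linear level was 11612 and 4277 in forskolin 1 and 2, against 4554 and 4325 in controls 1 and 2. Their median log2 level was 7.52 and 4.37 in forskolin 1 and 2, against 5.06 and 4.36 in controls 1 and 2. Control 1 was thus also above control 2. Alb, the albumin gene, had log2 values of 11.97 and 8.0 with forskolin and 8.77 and 7.86 in controls. Apoa1 showed the same picture, with 8.78 and 4.74 against 5.64 and 4.45, and so did Serpina1b, with 8.25 and 4.32 against 5.21 and 4.34. Ttr, which islets themselves express, stayed between 11.72 and 11.81 in the 4 libraries and is counted in the summed levels. No marker of the list was at 0. Acinar cell markers also differed between the libraries, with summed linear levels of 2190 and 8006 in forskolin 1 and 2, against 2258 and 4807 in controls 1 and 2, and their part in the results was not tested. Among the 10 genes, Pck1 and G6pc differed as the markers did, by 2.09 and 1.41 in pair 1 and by 0.32 and -0.23 in pair 2. The part of these transcripts in those 2 values was not tested. Without forskolin 1 the Pck1 and G6pc changes were -0.10 and -0.21. In pair 2 Ppargc1a, Slc25a25, Fbp1 and Tat differed by 2.11, 2.56, 1.48 and 1.06. Without control 1, 3 of the 10 genes were called higher, against 0.9% of all genes. Without forskolin 2, 6 of the 10 were called higher, against 13.8% of all genes, and 2 lower, against 7.04%, since Pck1 and G6pc then passed (limma adjusted p = 0.000613 and 0.000282), and so did Foxo3 and Pck2 in the lower direction (limma adjusted p = 0.00172 and 0.0191).

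**Figure D1:**
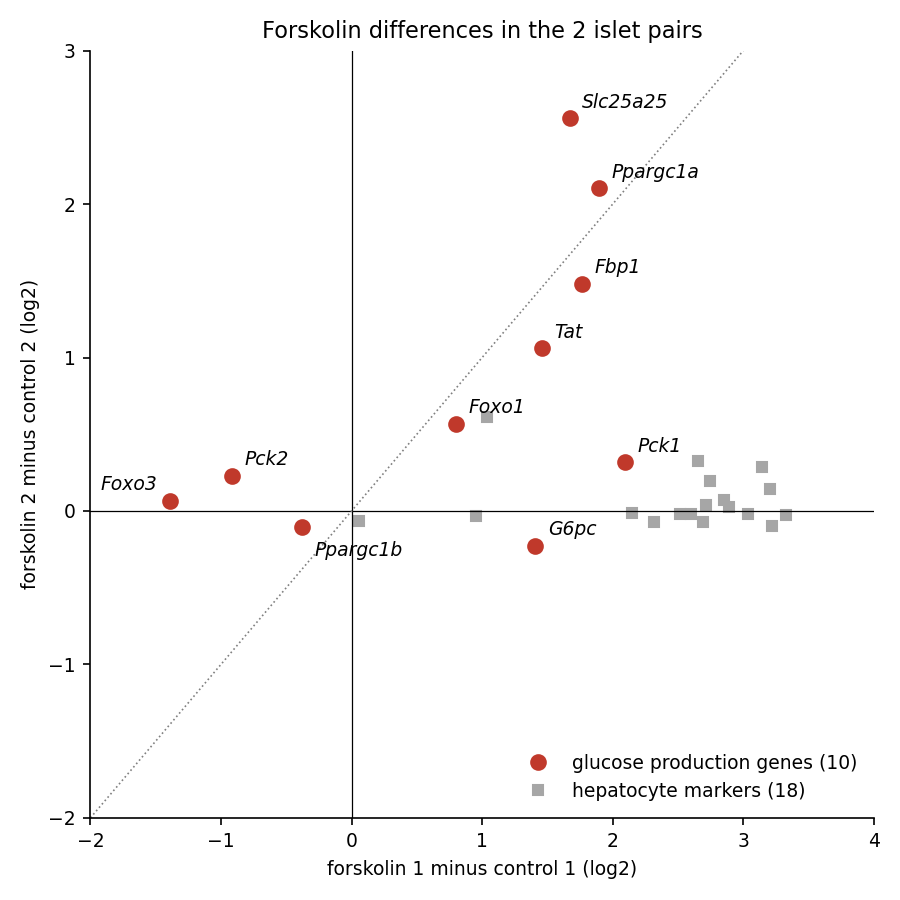
Forskolin minus control difference on the log2 scale in islet pair 1 (horizontal axis) and pair 2 (vertical axis) for the 10 genes (red circles) and 18 hepatocyte markers (grey squares); the dotted line marks equal differences. Ppargc1a, Slc25a25, Fbp1, Tat and Foxo1 lie above 0 in both pairs, while most markers lie to the right near 0 on the vertical axis, with Pck1 and G6pc nearest to them among the 10.

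In hepatocytes the authors' deposited table calls 5 of the 10 genes higher with forskolin at adjusted p under 0.05, against 0.323% of 15492 genes with a value, and none lower, against 0.0452%. Pck1, the cytosolic PEPCK gene, has the largest value at a log2 fold change of 4.16, followed in the authors' deposited table by Tat at 2.57, Slc25a25 at 1.82, G6pc at 1.56 and Ppargc1a at 0.94. Fbp1 is at 0.57 in the authors' deposited table and is not called there (adjusted p = 1.00). Pck2, Foxo1, Foxo3 and Ppargc1b lie between -0.10 and 0.25 in the authors' deposited table. With the libraries as their columns are named, limma called none of 12593 genes in either direction (0% higher and 0% lower), and 32 genes had an unadjusted p under 0.05.

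The 2 hepatocyte pairs, as named, moved in opposite directions. Pck1 (chr2:173153073-173159253, plus strand) had log2 values of 10.08 and 7.62 in the libraries labelled forskolin 1 and 2, against 7.71 and 10.17 in those labelled control 1 and 2. Its differences were thus 2.36 in pair 1 and -2.55 in pair 2, and the library labelled control 2 resembled the one labelled forskolin 1. Tat had 10.46 and 8.58 with forskolin and 8.57 and 10.19 in controls, as labelled. G6pc (chr11:101367716-101377903, plus strand) had 7.45 and 5.35 with forskolin and 5.50 and 6.33 in controls, as labelled. Its pair differences were 1.96 and -0.98. Slc25a25 had 9.13 and 7.98 with forskolin and 7.77 and 9.43 in controls, as labelled. Ppargc1a had 6.43 and 5.56 with forskolin and 5.59 and 5.99 in controls, as labelled, with pair differences of 0.83 and -0.42. Fbp1 had 8.31 and 7.79 with forskolin and 7.46 and 7.88 in controls, so that its pair 1 difference of 0.84 had a pair 2 counterpart of only -0.09. In all, 8 of the 10 genes were higher in pair 1 and 2 of 10 in pair 2. The share of all genes higher in each pair is not given here. The medians of the 10 were 0.84 and -0.29, beside -0.0004 and -3.2e-05 for all genes tested. Pck2, Foxo1, Foxo3 and Ppargc1b differed by at most 0.16 in either direction within a pair.

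The file header lists the 4 hepatocyte libraries with the groups control, forskolin, forskolin and control, while the columns are named control 1, forskolin 1, control 2 and forskolin 2. The authors' log2 fold change correlated with the pair 1 difference at 0.879 and with the pair 2 difference at -0.844 across 12593 genes, which are not independent replicates. With replicate 2 taken in the header's order, limma called 2 of the 10 genes higher, Pck1 (log2 fold change 2.45, adjusted p = 0.00191) and Tat (1.75, adjusted p = 0.0273), against 0.0238% of 12597 genes. With the replicate number added as a block in that order, 6 of the 10 were called higher, against 3.14% of genes, with G6pc, Slc25a25, Ppargc1a and Fbp1 gaining calls. The header also names a 1 h forskolin library where the labels give 2 h, and whether the 2 pairs differed in treatment time was not tested. Hepatocyte markers did not separate the libraries, with summed linear levels of 134570 and 141107 in those labelled forskolin and 132182 and 138710 in those labelled control, and 10 of 11 islet endocrine markers were under the low-value limit. A direction for hepatocytes rests on pair 1 and on the authors' deposited table.

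**Figure D2:**
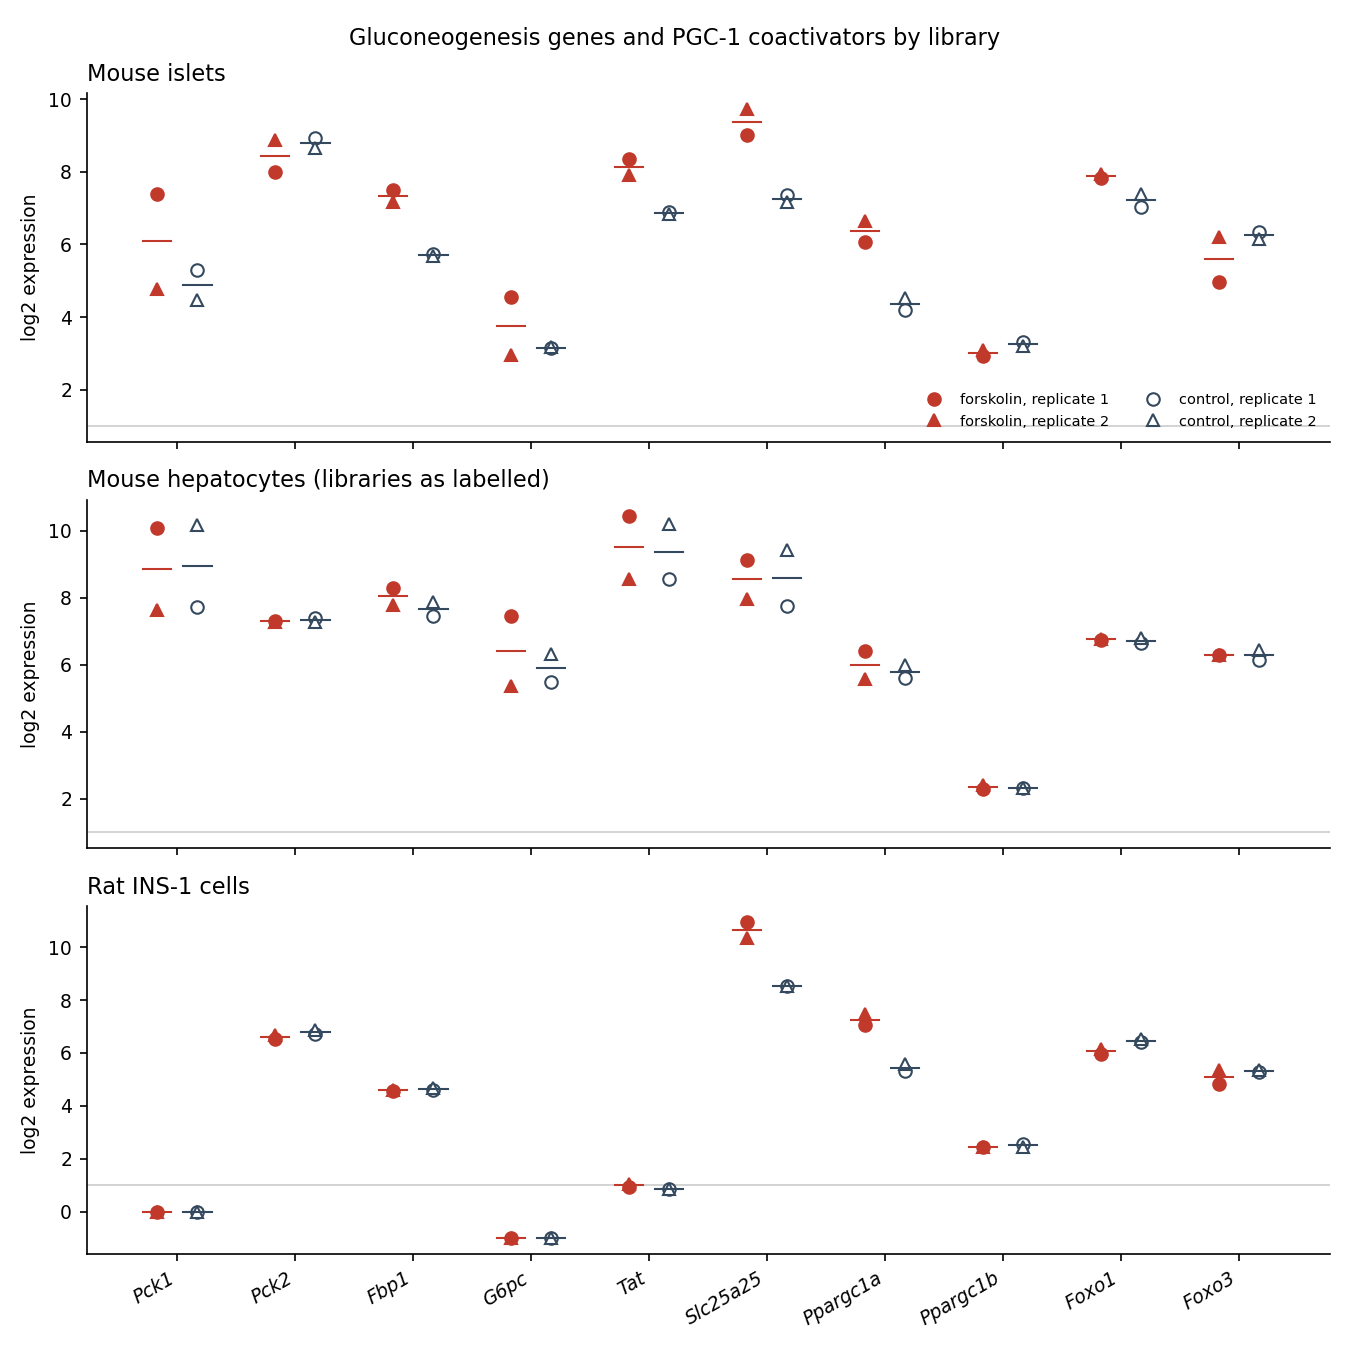
Deposited log2 expression of the 10 genes in each library of islets (top), hepatocytes (middle) and INS-1 cells (bottom); red filled symbols are forskolin and open symbols control, circles replicate 1, triangles replicate 2, short lines group means, and the grey line the low-value limit of 1. Ppargc1a and Slc25a25 separate without overlap in islets and INS-1 cells, and in hepatocytes Pck1, Tat, G6pc and Slc25a25 have their order turned round between the replicates.

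In INS-1 cells forskolin raised Ppargc1a and Slc25a25, and no other of the 10 genes was called. Of the 10, 7 passed the low-value limit and 2 were called higher, against 3.07% of 10345 genes. None was called lower, against 1.24%. At an unadjusted limma p under 0.05, 1 of the 7 (Foxo1) was lower, and 1787 of the 10345 genes passed that limit in either direction. The authors' deposited table calls the same 2 genes higher, against 2.7% of 11980 genes with a value, and none lower, against 0.902%. Ppargc1a (rn6, chr14:63095827-63186819, plus strand) had log2 values of 7.05 and 7.48 with forskolin and 5.30 and 5.60 in controls, a change of 1.82 (SE 0.165, n = 2 each, limma adjusted p = 7.1e-05). Slc25a25 (chr3:11442396-11452529, minus strand) had 10.96 and 10.36 with forskolin and 8.53 and 8.54 in controls, a change of 2.12 (SE 0.188, limma adjusted p = 6.57e-05). Both genes carry TGACGTCA in the rat promoters shown above. Their calls held without any 1 of the 4 libraries.

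None of the enzyme genes was called in INS-1 cells. Pck1 was listed at 0 in all 4 libraries, and G6pc, between -1.01 and -0.99, and Tat, between 0.87 and 1.06, were under the low-value limit. Fbp1 had 4.58 and 4.61 with forskolin and 4.60 and 4.67 in controls. Its change of -0.04 (SE 0.0976, limma adjusted p = 0.873) stands beside the rise of 1.62 in islets, in a table normalised separately, and that difference was not tested. Pck2, the PEPCK gene with the higher level in these cells, differed by -0.19 (SE 0.133, limma adjusted p = 0.497). Foxo1 had 5.98 and 6.14 with forskolin and 6.40 and 6.52 in controls, lower without overlap. Pck2 and Ppargc1b were also lower without overlap, and the share of all genes is not given here. The Foxo1 change of -0.40 (SE 0.129, limma adjusted p = 0.121) did not pass. It passed by limma with the replicate number as a block (adjusted p = 0.0125), a setting that called more genes lower. Foxo3 and Ppargc1b did not pass (limma adjusted p = 0.491 and 0.581).

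The inhibitor experiment in INS-1 cells gave the members in FPKM, a unit read from the values, with 1 library a condition and so no replicate check. Intervals are 95% exact intervals of a ratio from estimated reads and cover counting error only. Forskolin against control took 2 of the 7 genes at or above 1 FPKM past 2-fold higher, against 5.11% of 10025 genes, and 1 past 2-fold lower, against 4.34%, on a log2 scale with a pseudocount of 1 FPKM. Ppargc1a stood at 37.6 FPKM with forskolin and 1.53 FPKM in the control, a ratio of 24.6 (14.8 to 44.7). Slc25a25, at 352 FPKM with forskolin and 33.0 FPKM in the control, had a ratio of 10.7 (9.66 to 11.8). Foxo3 was lower with forskolin, at 4.69 FPKM against 12.1 FPKM in the control (0.388, interval 0.280 to 0.538). Foxo1 was at 10.8 FPKM with forskolin and 20.9 FPKM in the control (0.520, interval 0.410 to 0.658). In the separate replicated INS-1 experiment Foxo1 lay 0.40 lower on the log2 scale and Foxo3 0.23 lower, neither called.

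A-485 and JQ1 left different patterns in the genes that forskolin raised. With A-485 and forskolin Ppargc1a was at 1.64 FPKM, and with JQ1 and forskolin at 5.42 FPKM, both far below the 37.6 FPKM with forskolin alone. The ratio to forskolin alone was 0.0437 (0.0272 to 0.0676) for A-485 and 0.144 (0.106 to 0.195) for JQ1. The A-485 library differed little from the untreated control for this gene, with a ratio of 1.08 (0.539 to 2.25), whereas the JQ1 library was still 3.55-fold above it (1.98 to 6.87). Slc25a25 stood at 54.2 FPKM with A-485 and forskolin and at 348 FPKM with JQ1 and forskolin, beside 352 FPKM with forskolin alone. The carrier gene thus had a ratio to forskolin alone of 0.154 (0.143 to 0.165) under A-485 and of 0.987 (0.946 to 1.03) under JQ1. Both ratios share the same forskolin library, and the direct ratio of the A-485 to the JQ1 library was 0.303 (0.175 to 0.509) for Ppargc1a and 0.156 (0.145 to 0.167) for Slc25a25. Islet endocrine markers differed too. Against forskolin alone, 4 of 9 were past 2-fold lower under A-485 (9.37% of all genes), with a median log2 ratio of -0.91. Under JQ1 none was lower (7.55% of all genes) and 1 of 9 was higher (8%), with a median of 0.02. Their part was not tested, and no library had an inhibitor without forskolin.

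Against forskolin alone, the 2 FOXO genes were past 2-fold higher under JQ1, and Foxo3 was so under A-485 too. Foxo1 was at 12.3 FPKM with A-485 and forskolin and 25.4 FPKM with JQ1 and forskolin, beside 10.8 FPKM with forskolin alone. Foxo3 was at 13.2 FPKM with A-485 and forskolin and 15.5 FPKM with JQ1 and forskolin, beside 4.69 FPKM with forskolin alone. Each of the JQ1 values was above the untreated control, by 1.22-fold (1.01 to 1.47) for Foxo1 and 1.29-fold (1.02 to 1.62) for Foxo3. Pck2 was lowest with A-485, at 15.6 FPKM, against 26.8 FPKM with JQ1 and forskolin, 23.6 FPKM with forskolin and 28.6 FPKM in the control. Fbp1 lay between 2.68 and 5.04 FPKM and Ppargc1b between 0.684 and 1.05 FPKM across the 4 libraries, and their ratios to forskolin alone had intervals that included 1. Pck1, G6pc and Tat were listed at 0 in all 4. Past 2-fold against forskolin alone, A-485 had 1 of the 7 genes higher (5.32% of all genes) and 2 lower (9.37%), and JQ1 had 2 higher (8% of all genes) and 1 lower (7.55%).

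**Figure D3:**
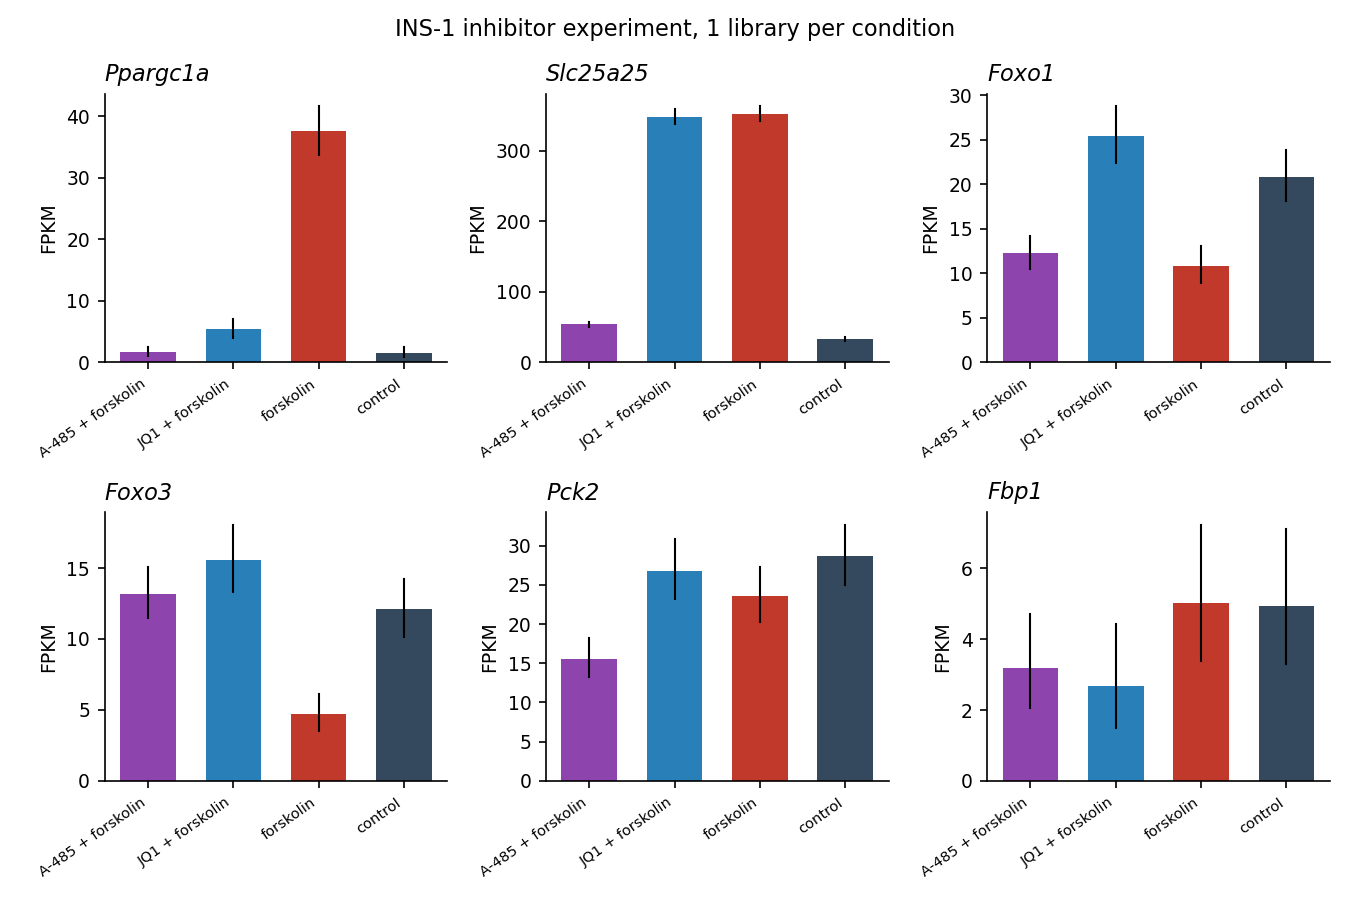
FPKM (vertical axis, from 0) of 6 genes in the 4 INS-1 libraries of the inhibitor experiment, 1 library a bar; black lines are 95% exact Poisson intervals from estimated reads, which cover counting error only. Slc25a25 is about as high with JQ1 and forskolin as with forskolin alone, while Ppargc1a is low with either inhibitor.

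CRTC2 is a coactivator that cAMP sends to the nucleus to join CREB. In the knockout experiment Crtc2 itself was at 9.58 and 7.77 FPKM in knockout forskolin and control islets, against 13.9 and 18.7 FPKM in wild-type forskolin and control islets, so its transcript was lower but still measured, and the labels do not name the deleted exon. Knockout islets were also the ones with liver transcripts. The 18 hepatocyte markers summed to 6431 and 2413 FPKM in knockout forskolin and control islets, against 1778 and 1939 FPKM in wild-type forskolin and control islets, with medians of 126.6 and 29.3 FPKM against 2.59 and 2.75 FPKM. Ttr, which islets themselves express, is counted in these sums, at 2200 and 1389 FPKM against 1514 and 1741 FPKM. Alb alone was at 1436 and 298 FPKM against 45.2 and 41.2 FPKM. No defining marker was at 0 in the knockout libraries, and the knockout forskolin library was also the shallowest. Acinar cell markers differed too, with 10 of 11 past 2-fold lower in knockout than in wild-type islets both with forskolin (median log2 ratio -1.97) and in controls (-3.29). Their summed level was 1720 and 296 FPKM in knockout forskolin and control islets, against 6375 and 3470 FPKM in wild-type forskolin and control islets. With forskolin against control 10 of 11 were past 2-fold higher in knockout and 3 of 11 in wild-type islets (medians 2.10 and 0.69). The part of liver and acinar transcripts in the values that follow was not tested. The wild-type columns tracked islet replicate 2 after centring on the mean of the libraries (correlations across 7289 genes of 0.932 for forskolin and 0.907 for control), so they may be the same libraries and are not counted as a further replicate.

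Ppargc1a and Slc25a25 were higher with forskolin in both genotypes, and lower in knockout than in wild-type islets with forskolin. Ppargc1a was at 4.45 and 0.486 FPKM in knockout forskolin and control islets, against 11.7 and 0.755 FPKM in wild-type forskolin and control islets. The forskolin-to-control ratios were 9.15 (4.27 to 18.1) in knockout and 15.6 (8.55 to 34.2) in wild-type islets, whose intervals overlap; between the forskolin libraries the knockout-to-wild-type ratio was 0.379 (0.211 to 0.611). Slc25a25 was at 73.0 and 12.2 FPKM in knockout forskolin and control islets, against 154 and 14.8 FPKM in wild-type forskolin and control islets. For this gene the ratios were 5.97 (4.79 to 7.39) in knockout and 10.4 (8.51 to 12.9) in wild-type islets, and the knockout-to-wild-type ratio with forskolin was 0.475 (0.395 to 0.566). Between the control libraries the intervals included 1 for both genes, at 0.644 (0.297 to 1.64) for Ppargc1a and 0.827 (0.654 to 1.06) for Slc25a25. With 1 library a condition these are differences between libraries, not tests of the genotype.

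Pck1 and G6pc were higher in both knockout libraries, where the liver markers were also higher. Pck1 was at 47.5 and 11.7 FPKM in knockout forskolin and control islets, against 3.20 and 1.44 FPKM in wild-type forskolin and control islets. G6pc was at 10.6 and 2.32 FPKM in knockout forskolin and control islets, against 0.199 and 1.07 FPKM in wild-type forskolin and control islets, the wild-type values resting on 1 and 5 estimated reads. Tat, at 92.0 and 20.9 FPKM in knockout forskolin and control islets and 52.2 and 18.5 FPKM in wild-type forskolin and control islets, was 4.40-fold higher with forskolin (3.55 to 5.43) in knockout and 2.83-fold higher (2.23 to 3.60) in wild-type islets. Fbp1 was at 74.3 and 14.6 FPKM in knockout forskolin and control islets and 60.6 and 12.5 FPKM in wild-type forskolin and control islets, with ratios of 5.10 (3.75 to 6.96) and 4.84 (3.39 to 6.89). In the wild-type libraries, which may be those of islet replicate 2, Fbp1 and Tat were past 2-fold higher with forskolin. The marker medians there were 2.59 FPKM with forskolin and 2.75 FPKM in the control, and the part of liver transcripts was not tested.

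Past 2-fold, 6 of the 10 genes were higher with forskolin in knockout islets, against 12.1% of 13032 genes, and 4 of 10 in wild-type islets, against 9.2%; none was past 2-fold lower, against 11.5% and 6.61%. Foxo1 was at 17.1 and 11.1 FPKM in knockout forskolin and control islets, against 24.0 and 13.6 FPKM in wild-type forskolin and control islets. Foxo3 was at 20.2 and 9.66 FPKM in knockout forskolin and control islets, against 14.7 and 13.7 FPKM in wild-type forskolin and control islets. Per length and within the wild-type libraries, Slc25a25 was the most abundant of the 10 with forskolin and Pck2, at 67.3 FPKM, came next, while in the control Pck2 led at 54.4 FPKM, followed by Tat at 18.5 FPKM. Pck2 had knockout-to-wild-type ratios of 0.813 (0.655 to 0.995) with forskolin and 0.815 (0.723 to 0.921) in controls. Ppargc1b stayed between 0.935 and 1.63 FPKM in the 4 libraries.

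**Figure D4:**
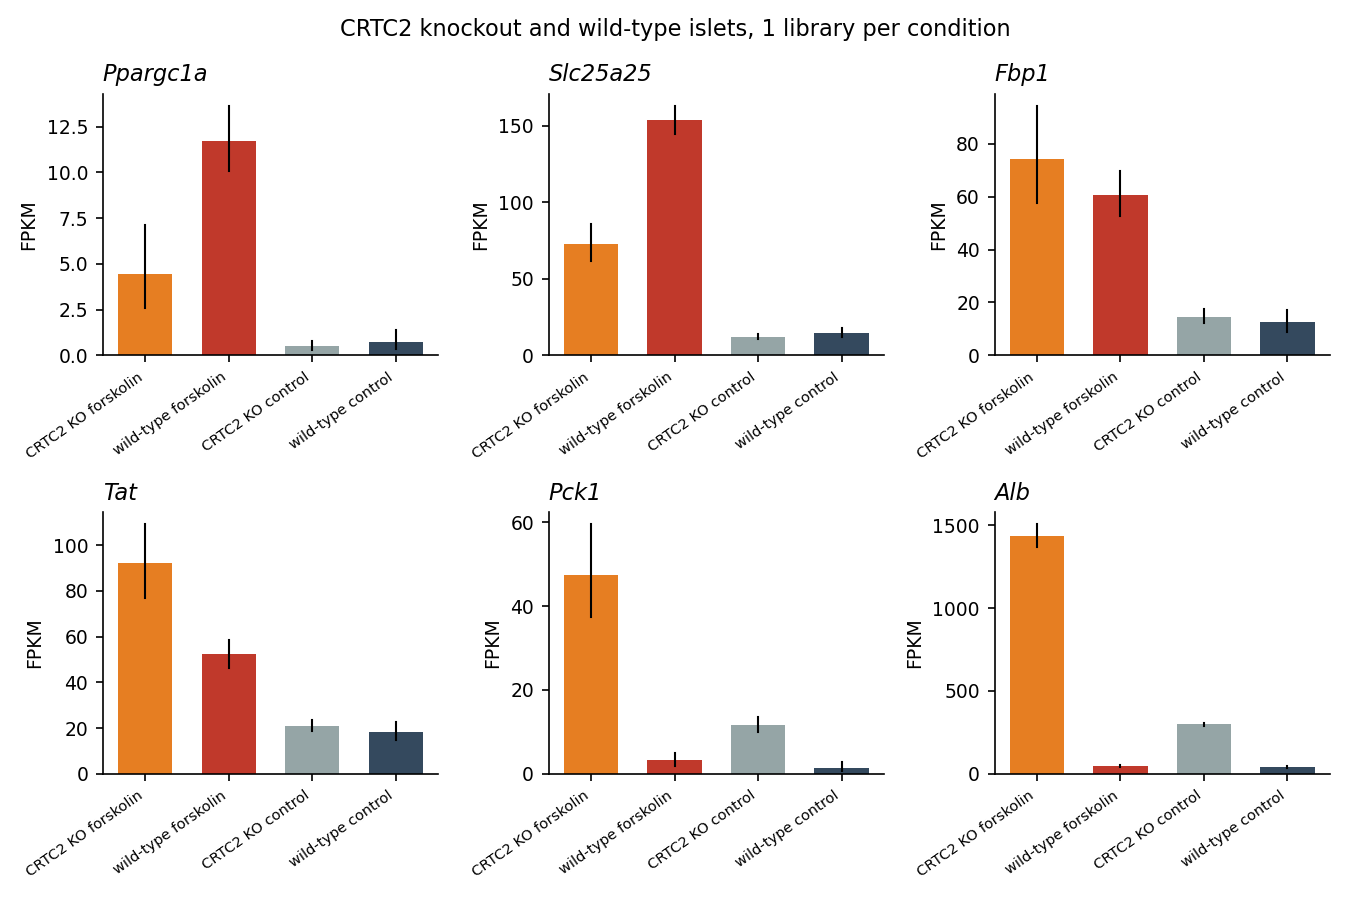
FPKM (vertical axis, from 0) of 5 of the 10 genes and of the hepatocyte marker Alb in the 4 islet libraries of the CRTC2 knockout experiment, 1 library a bar; black lines are 95% exact Poisson intervals from estimated reads, which cover counting error only. Ppargc1a and Slc25a25 are highest in wild-type islets with forskolin, whereas Pck1 and Alb are highest in knockout islets with forskolin.

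In AR42J cells the response was led by Pck1, which was listed at 0 in INS-1 cells. Pck1 was at 6.32 FPKM with forskolin and 1.26 FPKM in the control of NeuroD1 cells, a ratio of 5.0 (2.47 to 11.2). In GFP cells it was at 10.9 FPKM with forskolin and 1.41 FPKM in the control, a ratio of 7.75 (4.32 to 15.1). The NeuroD1-to-GFP ratio was 0.577 (0.392 to 0.838) with forskolin and 0.895 (0.351 to 2.21) in controls. Of the 18 hepatocyte markers, 4 or 5 reached 1 FPKM in these libraries, with summed levels of 90.2 FPKM (forskolin) and 92.8 FPKM (control) in NeuroD1 cells and 90.2 and 86.5 FPKM in GFP cells, so the markers did not move with Pck1. Slc25a25 was at 28.9 FPKM with forskolin and 17.5 FPKM in the control of NeuroD1 cells (1.65, interval 1.35 to 2.04), and at 22.9 and 12.4 FPKM in GFP cells (1.84, interval 1.48 to 2.28). This carrier gene, raised 4.35-fold on the log2 columns in INS-1 cells, was short of 2-fold in both AR42J lines.

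Ppargc1a was scarce in AR42J cells. It was at 2.45 FPKM with forskolin and 0.686 FPKM in the control of NeuroD1 cells (3.57, interval 1.23 to 12.6), and at 1.36 and 0.826 FPKM in GFP cells (1.65, interval 0.583 to 5.01). Those values rest on 15, 5, 11 and 7 estimated reads, and the forskolin libraries of NeuroD1 and GFP cells were not distinguishable for this gene at this depth (1.80, interval 0.772 to 4.33). Pck2, the most abundant of the 10 per length in all 4 AR42J libraries, and Foxo3 were lower with NeuroD1. Pck2 was at 45.1 and 49.8 FPKM in NeuroD1 forskolin and control cells, against 65.7 and 69.6 FPKM in GFP forskolin and control cells. Foxo3 was at 11.3 and 13.5 FPKM in NeuroD1 forskolin and control cells, against 24.4 and 25.5 FPKM in GFP forskolin and control cells. Acinar cell markers were also lower with NeuroD1, 4 of 10 past 2-fold with forskolin (median log2 ratio -0.97) and 6 of 10 in controls (-1.16), with summed levels of 22520 and 19950 FPKM in NeuroD1 forskolin and control cells, against 41739 and 38731 FPKM in GFP forskolin and control cells. Their part in these differences was not tested. For Foxo3 the NeuroD1-to-GFP ratio was 0.464 (0.355 to 0.597) with forskolin and 0.530 (0.423 to 0.664) in controls. Past 2-fold with forskolin, 2 of the 8 genes at or above 1 FPKM were higher in NeuroD1 cells, against 1.27% of 10142 genes, and 1 of 8 in GFP cells, against 1.11%; none was past 2-fold lower, against 1.22% and 0.69%. Between the NeuroD1 and GFP controls none of the 8 was past 2-fold, against 6.69% of genes higher and 4.66% lower. Tat, G6pc and Foxo1 had forskolin ratios whose intervals included 1 in both lines, and Fbp1 and Ppargc1b stayed under 1 FPKM.

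**Figure D5:**
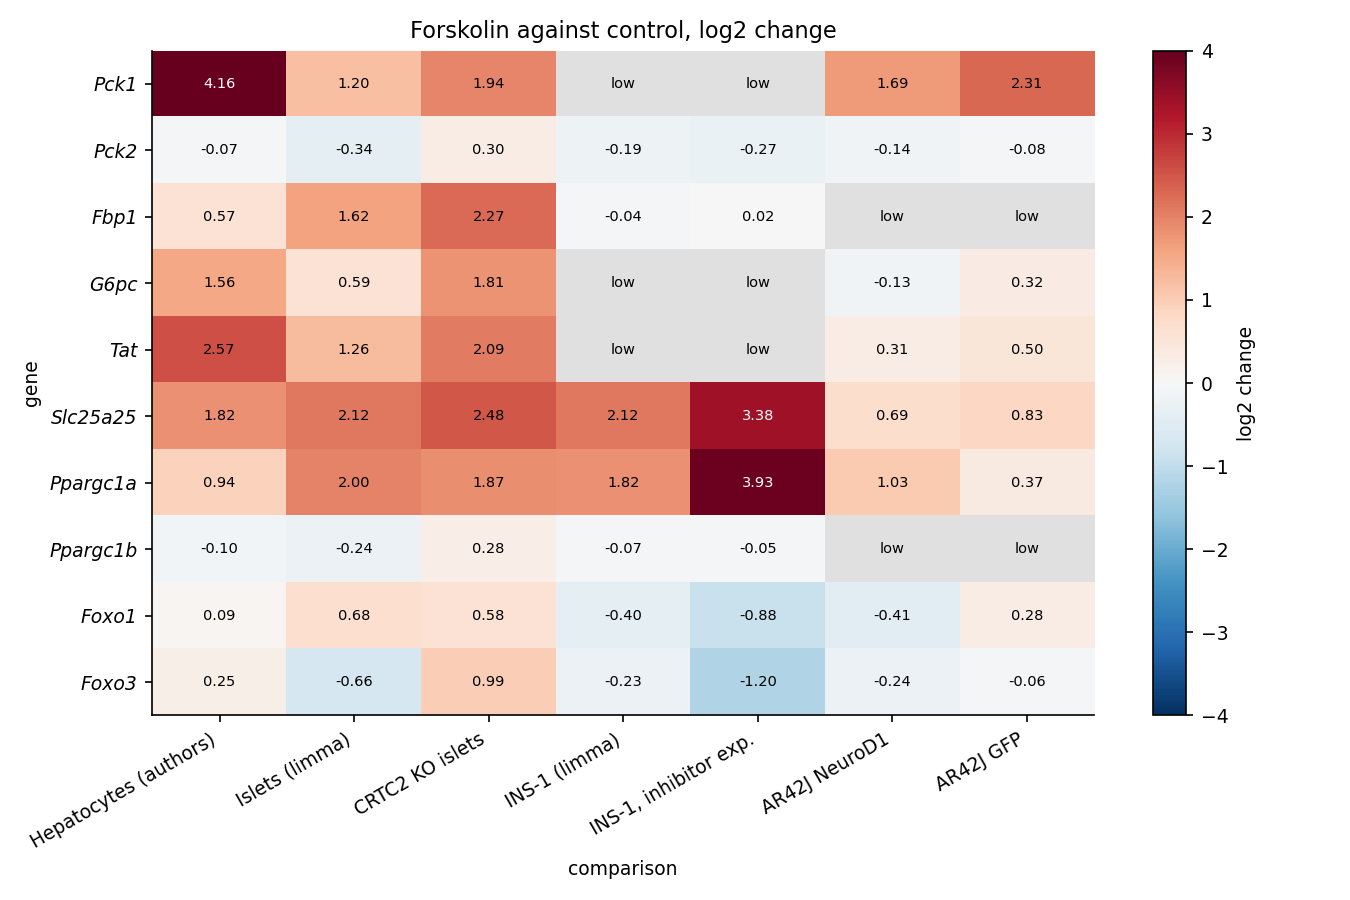
Log2 change with forskolin against control (colour and printed number) for the 10 genes (rows) in 7 comparisons (columns): the authors' log2 fold change in hepatocytes, limma on the log2 columns in islets and INS-1 cells, and the log2 ratio with a pseudocount of 1 FPKM elsewhere; "low" marks genes under the low-value limit. Slc25a25 and Ppargc1a are above 0 in all 7 columns, while Pck2 and Ppargc1b stay within 0.34 of 0.

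Lists of related genes, chosen with earlier results known, are described by their counts. In islets 2 of 20 further gluconeogenic and glucose-release genes rose by limma, Fbp2 (log2 fold change 1.42, adjusted p = 0.00516) and Gpt2 (1.26, adjusted p = 0.0248), against 1.72% of all genes, and none fell; the list's median change was 0.33, beside 0.01 for all genes. Fbp2 encodes the muscle form of fructose bisphosphatase and Gpt2 the mitochondrial alanine aminotransferase. In INS-1 cells 1 of 15 rose, against 3.07% of all genes, Gpt2 (0.63, adjusted p = 0.035), with a median of 0.21 beside 0.00 for all genes. In the authors' deposited table for hepatocytes Got1, which encodes the cytosolic aspartate aminotransferase, is called at a log2 fold change of 1.29.

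Of regulators of gluconeogenic transcription 6 of 20 rose in islets, against 1.72% of all genes, and none fell, with a median of 0.35. The largest were Crem, a CREB relative with cAMP-inducible repressor forms (log2 fold change 3.60, adjusted p = 0.00191), Sik1, a kinase that phosphorylates CRTC2 and keeps it in the cytoplasm (3.33, adjusted p = 0.00358), and the orphan receptor gene Nr4a1 (3.04, adjusted p = 0.00341). Irs2, an adaptor of insulin signalling and a known CREB target in beta cells, rose by 2.97 (adjusted p = 0.0146). In INS-1 cells 6 of 16 rose, against 3.07% of all genes, and none fell, with a median of 0.15, led by Sik1 (3.03, adjusted p = 5.73e-06), Crem (2.77, adjusted p = 1.22e-05) and Nr4a1 (2.75, adjusted p = 4.77e-06), with Irs2 (1.42), Cebpb (0.89) and Stat3 (0.70) behind them. The authors' deposited table for hepatocytes calls Irs2 (log2 fold change 1.67), Sik1 (1.53) and Crem (1.22) of 20, against 0.323% of all genes. These adjusted p-values for islets and INS-1 cells come from limma over all genes.

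Of PGC-1 partners and targets 1 of 11 rose in islets by limma, against 1.72% of all genes, namely Cpt1a, the carnitine palmitoyltransferase of liver mitochondria (log2 fold change 1.72, adjusted p = 0.0258), and the list's median was -0.05. In INS-1 cells, where limma called 3.07% of genes higher and 1.24% lower, none of 10 was called by limma or in the authors' deposited table, with a median of -0.04. Among 9 tested SLC25 carriers in islets the phosphate carrier gene Slc25a3 rose by 2.01 (limma adjusted p = 0.0086), and the list's median was 0.18; none of 8 was called in INS-1 cells by limma or in the authors' deposited table, with a median of 0.12. Of 12 other amino acid catabolism genes 1 rose in islets, the glutaminase gene Gls2 (1.65, limma adjusted p = 0.0049), and the list's median difference was 1.59 in pair 1 and -0.01 in pair 2, beside 2.71 and -0.02 for the liver markers. In INS-1 cells none of the 5 that were tested was called by limma or in the authors' deposited table, with a median of 0.12.

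Inhibitors and genotype were also compared for these lists. Against forskolin alone, A-485 left 8 of 16 regulators past 2-fold lower, against 9.37% of all genes, and none higher, against 5.32%, with a median log2 ratio of -0.74. JQ1 left 2 of 16 lower, against 7.55%, and 1 higher, against 8%, with a median of -0.33. Crem, a gene called in each replicated experiment by limma or the authors, had a log2 ratio to forskolin alone of -2.44 under A-485. Under JQ1 it changed little, with log2 ratios to the control of 4.69 with JQ1 and forskolin and 5.01 with forskolin alone. Nr4a1 was not lowered, with log2 ratios to the control of 5.49 with A-485, 5.32 with JQ1 and 4.59 with forskolin alone. Nr0b2, which encodes the repressor SHP, had log2 ratios to forskolin alone of -3.13 under A-485 and -2.74 under JQ1. In AR42J cells forskolin took 5 of 16 regulators past 2-fold higher in NeuroD1 cells, against 1.27% of all genes, and 3 of 16 in GFP cells, against 1.11%, and Irs2 was among them in both, with log2 ratios of 1.88 and 1.66. In the knockout experiment 9 of 20 regulators were past 2-fold higher with forskolin in knockout islets, against 12.1% of all genes, and 7 of 20 in wild-type islets, against 9.2%. In each genotype 1 of the 20 was past 2-fold lower, against 11.5% and 6.61%. The amino acid catabolism list had 8 of 12 past 2-fold higher and 1 lower in knockout islets, and 2 of 12 higher in wild-type islets, beside the marker levels given above.

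The genes whose forskolin response was most like that of Ppargc1a were sought by the Euclidean distance between log2 changes in 8 forskolin comparisons. The 7116 genes compared had an authors' log2 fold change in each replicated experiment and at least 1 FPKM in 1 library of each other comparison. The authors' log2 fold changes stood for the replicated experiments. Slc25a25 was the nearest at a distance of 1.58, followed by Cwc25 at 1.64, Egr1 at 1.74, Srxn1 at 1.84 and Mest at 1.90. Cwc25 encodes a splicing factor, Egr1 an immediate early transcription factor, and Srxn1 sulfiredoxin. They differ in hepatocytes, where the authors' deposited table gives log2 fold changes of 0.94 for Ppargc1a, 1.82 for Slc25a25, 0.72 for Mest, 0.14 for Cwc25, 0.18 for Srxn1 and -0.25 for Egr1. Wild-type islets enter this measure through the replicated table and again through the knockout experiment, so islets weigh more than other cells.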

How the data were processed

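RNA-seq was made from 22 libraries in 16 groups, taken from the sample titles. Libraries were made with a directional kit, per the labels' protocols. For islets, hepatocytes and INS-1 cells the authors counted reads over RefSeq exons on the transcript strand with HOMER on mm10 or rn6 and kept 1 transcript per gene, per the file headers. The deposited columns are log2 expression, as judged from their range. Beside them stand, per the file headers, the authors' log2 fold change and its p-value and adjusted p-value. The submitters' processing notes name TopHat2 2.0.9, STAR, HOMER and DESeq2, without saying which aligner served which table. The other 3 tables name no unit, and their deposited values behave as FPKM. The islet and hepatocyte tables represent Ppargc1a by transcripts of 6391 and 6482 bases.

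A count test had been planned. The columns turned out to be log2 values, and limma 3.58.1 (R 4.3.3) was run on them with a variance trend, on genes with a group mean of at least 1, within each table. Unreplicated tables gave log2 ratios with 1 FPKM added to each value, so that changes of scarce genes come out too small, for genes with 1 FPKM in the highest library, and a 2-fold limit in place of a test. Reads were estimated from the value of 1 read in each library; 49.7% to 74.7% of low values came within 0.1 of a whole read, so they are approximate. Ratio intervals are exact (Clopper-Pearson, 95%). The fit was tested on simulated log2 values with planted changes, and the interval on simulated whole read counts with a known scale. The interval test therefore does not cover error in the estimated reads or depth.

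The members, the 5 pathway lists and the marker lists were chosen with earlier results of these data known. All 10 members are named. Other genes are the largest called changes of the pathway lists and 4 hepatocyte markers (Alb, Apoa1, Ttr and Serpina1b). Gpt2, Fbp2 and Gls2 fall outside that rule and were named after their values were seen. Hepatocyte genes were chosen by the authors' deposited table. Alternatives left out each library, changed the filter, normalisation, variance trend or pseudocount, or added the replicate number as a block. Taking hepatocyte replicate 2 in the header's order was added after seeing the data. Mouse promoters and protein sequences were not used here. The result of 1 gene of the pathway lists is not reported here.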

Additional observations from a re-analysis of the deposited data

Results flagged for a closer look

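Fbp1 had a log2 change of 1.6221 in islets, higher in both pairs, and of -0.0407 in INS-1 cells, lower in both pairs. Foxo1 had a log2 change of 0.6829 in islets, higher in both pairs, and of -0.4018 in INS-1 cells, lower in both pairs. For each gene both pair differences thus lay one way in one cell type and the opposite way in the other. For Fbp1 in INS-1 cells, however, the forskolin and control libraries overlapped and the change was smaller than its SE of 0.0976. In the INS-1 inhibitor experiment Fbp1 was at 5.04 FPKM with forskolin and 4.95 FPKM in the control. No direction for Fbp1 in INS-1 cells is therefore shown. The differences were not tested, since the 2 tables were normalised separately and hold different species. Of the 4 changes, limma called that of Fbp1 in islets.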

How the results depend on the processing

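Depth and replication set the limits. With 2 libraries a group, calls moved with single libraries, and comparisons with 1 library a group were not tested. Without a library its group has 1 sample, which is then assumed to vary like the others; 24 of the 27 gene changes in the replicated tables kept direction and call under the replicate block, and 26 with no filter or with no variance trend, the exception being Tat in islets. Where a value moved, the cause was not tested.

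In islets, genes called higher (235) ranged from 114 to 1879 and genes called lower (33) from 7 to 961 as each library was left out in turn, and the 4 of 10 genes called higher from 2 to 6 and those called lower from 0 to 2. Genes called lower numbered 12 with no variance trend, 18 with no filter and 56 with a group mean of at least 5; the authors' deposited table calls 483 higher and 63 lower. Leaving out a library moved Pck1 between -0.10 and 2.51, G6pc between -0.21 and 1.39 and Pck2 between -0.79 and 0.10.

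In hepatocytes as named, leaving out a library gave 0 to 4 genes higher (0 to 1 of the 10). The authors' deposited table has 50 higher, 7 lower and 5 of the 10 higher. Replicate 2 in the header's order gave 3 higher and 2 of the 10. Left-out libraries moved Pck1 between -1.32 and 1.14, Tat between -0.81 and 1.07, Slc25a25 between -0.88 and 0.79, G6pc between -0.56 and 1.54, Ppargc1a between -0.23 and 0.64, Foxo3 between -0.15 and 0.15, Foxo1 between -0.025 and 0.12, Pck2 between -0.10 and 0.026 and Ppargc1b between -0.033 and 0.072. Directions turned for 4 genes: Pck1 was 4.16 in the authors' deposited table and 2.45 in the header's order, Slc25a25 1.82 and 1.41, Foxo3 0.25 and 0.16, and Ppargc1b -0.10 and -0.051, and with the block added the header-order values were the same.

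In INS-1 cells, genes higher (318) ranged from 197 to 367 and genes lower (128) from 36 to 147 without single libraries, and numbered 194 and 32 with no variance trend. Foxo3 ranged from -0.49 to 0.036, and Fbp1 was 0.0066 with quantile normalisation.

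Replicate numbers match across groups, but nothing says they pair the libraries. Replicate differences of forskolin and control libraries correlated across genes at -0.05 (islets), 0.40 (hepatocytes) and 0.44 (INS-1). The replicate block gave 667 higher and 120 lower in islets, 774 and 691 in INS-1 cells, with 1 of 7 tested genes lower there (Foxo1, adjusted p = 0.0125), and, with the header's order, 395 and 227 in hepatocytes, with 6 of the 10 higher. It called Pck1 and G6pc in islets (limma adjusted p = 0.000202 and 0.0152). Yet the pair differences were unlike, at 2.09 and 0.32 for Pck1 and at 1.41 and -0.23 for G6pc. Forskolin 1, in pair 1, held raised liver transcripts, so these calls do not show a rise shared by both pairs.

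With a pseudocount of 2 FPKM, genes past 2-fold with forskolin numbered 863 lower in knockout islets, 455 lower in wild-type islets, 259 lower in INS-1 cells, 51 higher and 31 lower in GFP cells, and 69 higher and 43 lower in NeuroD1 cells; A-485 against forskolin had 345 higher. With 0.5 FPKM, GFP cells had 130 lower and NeuroD1 cells 197 higher.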
